A study of Mus musculus with 52 samples.

Results

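The frontal cortex of mice at postnatal day 60 (P60) was compared between mice labelled miR-146a KO, which lack the microRNA gene Mir146, and wild-type mice (WT). The comparison took the 7 libraries labelled P60 and frontal cortex, 4 KO and 3 WT, of 52 libraries in the series. The other libraries come from embryonic cortex and from the amygdala, hippocampus and frontal cortex at postnatal day 30 (P30) or P60. Per the series' design text the mice of a genotype had different mothers, and no treatment is named. The sources used here give neither the allele nor the strain background, nor the cells in which Mir146 was removed. Sex, read from Xist and Y-linked genes, was male, female, male and female in KO replicates 1 to 4 and male, female and male in WT replicates 1 to 3.

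miR-146a is a microRNA whose transcription is switched on by NF-kB, the central transcription factor of innate immune signalling. It pairs through its seed with messenger RNAs of the adaptor TRAF6 and the kinases IRAK1 and IRAK2, which carry signals from Toll-like receptors to NF-kB, and so forms a negative feedback loop. In brain it is best known from microglia and astrocytes, and NOTCH1 and NUMB have been reported as targets in neural cells. The sequences below are the mature products of Mir146 and, for comparison, miR-146b-5p, as RefSeq gives them for GRCm38.p6. The seed (bases 2 to 8 from the 5′ end) is in capitals. miR-146b is a separate gene on chromosome 19 whose 5p arm has the same seed, and it was not the target of the deletion.
mmu-miR-146a-5p: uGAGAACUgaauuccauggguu
mmu-miR-146a-3p: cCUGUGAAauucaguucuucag
mmu-miR-146b-5p: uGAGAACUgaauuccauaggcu

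Messenger RNAs that pair with the 5p seed carry AGTTCTC (opposite bases 2 to 8), GTTCTCA (opposite bases 2 to 7, followed by A) or AGTTCTCA, which holds both. The sites of the best-known targets are shown because a direct release from miR-146a would act through them. Each was read in the sense direction from the longest annotated 3′ untranslated region (3′ UTR) in GENCODE M21, with the matched letters in capitals.
Traf6, base 460 of the 3′ UTR: gttaccgctctggtgttgAGTTCTCAtt
Traf6, base 524: tgatccctggaaggcttaAGTTCTCAag
Traf6, base 1336: tacagtactttggagtctAGTTCTCAgg
Traf6, base 3860: ccgggactttgctactgcAGTTCTCAaa
Irak1, base 40: ctcagactcagaggtcaaAGTTCTCAtg
Irak1, base 56: aaagttctcatgcttggaAGTTCTCAta
Irak1, base 147: agggcagtggaccctgctGTTCTCAga
Notch1, base 261: gttccaagaaaataaactAGTTCTCAga
Irak2 had 3 such sites and Numb had 2.

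Values are normalised read counts, deposited by the authors as CPM on an effective library size. Each mean ± SD is taken over the 4 KO or the 3 WT libraries. A gene was called when its limma p-value, adjusted by Benjamini-Hochberg over all 19239 genes tested, was under 0.05. Log2 fold changes are KO minus WT of log2(value + 1), so that those of genes with low values come out too small. The 7 libraries held 6194350 to 7379353 recovered reads and correlated with each other at 0.982 to 0.991. The leading principal component, with 28.1% of the variance, did not separate the genotypes. The summed excitatory neuron genes stood at 8670 to 9841 in KO and 8418 to 8967 in WT. They are not particular to cortex, with sums of 5703 to 8688 in the P60 amygdala and 7076.5 to 9240 in the P60 hippocampus. The sum of 10 frontal cortex genes was 1219 to 1675 in KO and 1298 to 1389 in WT. It was 571 to 899 in the P60 amygdala and 484 to 560 in the P60 hippocampus. Summed marker genes of neighbouring structures varied between libraries. The sum of 15 striatal neuron genes was 461, 1251, 454 and 2125 in KO replicates 1 to 4 and 992, 985 and 1614 in WT replicates 1 to 3, and the sum of 13 choroid plexus and ependymal genes was 258 in KO replicate 2 against 13.5 to 19.9 in the other KO and 21.5 to 49.8 in the WT libraries. In bulk tissue fewer cells of a type and less RNA per cell cannot be told apart.

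Few genes differed between KO and WT, and all of them lie on chromosome 11, which carries Mir146. Of 19239 tested genes 6 were called (0.0312%). KO was higher for 3 of them (0.0156%) and lower for the other 3 (0.0156%). Pttg1 (securin, the inhibitor of sister chromatid separation), the gene model 9930111J21Rik2 and Kif3a (a motor subunit of kinesin-2) fell. Lyrm7 (a chaperone of mitochondrial complex III assembly), Tnip1 (a ubiquitin-binding protein that limits NF-kB signalling) and the olfactory receptor pseudogene Olfr1372-ps1 rose. At an unadjusted p under 0.05 there were 431 genes (2.24%), fewer than the share of 0.05 that chance alone would give. The KO and WT libraries did not overlap for 1012 genes (5.26%), 516 with KO higher (2.68%) and 496 with KO lower (2.58%).

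**Figure D1:**
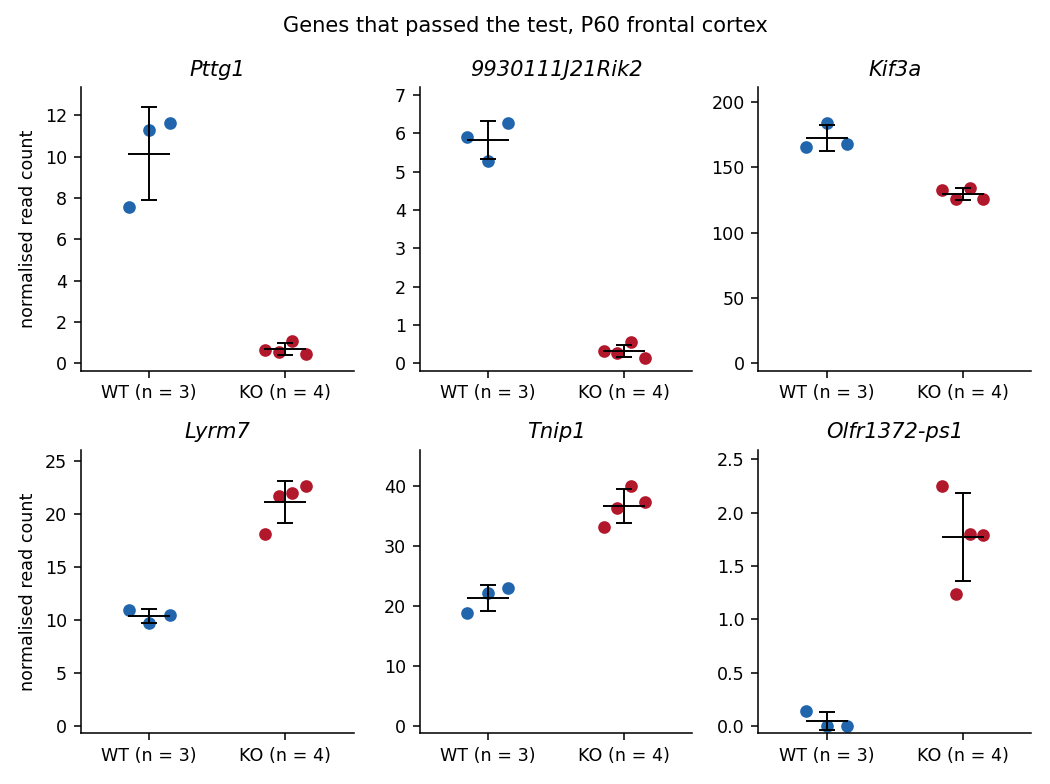
Normalised read counts (vertical axes, a separate scale for each gene) of the 6 called genes in the 3 WT and 4 KO frontal cortex libraries at P60. Points are libraries, the wide line is the group mean and the bar 1 SD; the groups do not overlap for any of the 6 genes.

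The gene nearest to Mir146 with a large difference was Pttg1 (ENSMUSG00000020415; chromosome 11, 43420250 to 43426251, minus strand, GRCm38), which starts 0.0458 Mb from Mir146. Its level was 0.64, 0.55, 1.11 and 0.45 in the KO libraries and 7.55, 11.28 and 11.62 in the WT libraries. Every KO library lay far below every WT library. The mean was 14.8-fold lower in KO (19 reads in all against 212), with a log2 fold change of -2.72 (SE 0.22, limma adjusted p = 1.27e-06). Pttg1 was the single called gene among 13 tested genes of sister chromatid separation, against 6 of all 19239 (0.0312%). The list was chosen with earlier results of these data known, so this count does not test that process. The list's median log2 fold change was -0.03 against 0.0016 over all tested genes.

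9930111J21Rik2 (ENSMUSG00000069892; chromosome 11, 49015874 to 49051242, minus strand), a gene model grouped here with the immunity-related GTPases, stood at 0.32, 0.28, 0.55 and 0.15 in KO and at 5.9, 5.28 and 6.26 in WT. The KO libraries held 9 reads in all and the WT libraries 122. The mean was 17.9-fold lower in KO (log2 fold change -2.37, SE 0.185, limma adjusted p = 1.27e-06). Its transcript is 98.975% identical over 3221 bases to that of 9930111J21Rik1 and it overlaps Olfr56 on the opposite strand, so how reads were shared among these genes is uncertain. The other immunity-related GTPases tested did not pass: Gm5431, another close copy (95.6% identical over 2961 bases), averaged 1.43 ± 0.72 in KO against 0.617 ± 0.196 in WT, and Gbp7 averaged 11.3 ± 0.644 against 8.83 ± 0.928 (limma adjusted p = 1.00 for both). Over the 10 tested genes of this list the median log2 fold change was 0.20, with 8 above 0 and 2 below. This list, too, was chosen with earlier results of these data known.

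Kif3a (ENSMUSG00000018395; chromosome 11, 53567379 to 53601967, plus strand), whose protein drives transport along microtubules and the building of cilia, measured 132.85, 125.64, 134.15 and 125.54 in KO against 165.92, 183.76 and 167.64 in WT. The difference was small but the groups were tight and did not overlap, with KO 24.9% lower (log2 fold change -0.41, SE 0.0653, limma adjusted p = 0.0161). The call ended when any replicate other than KO replicate 3 was left out, and with the 7 frontal cortex libraries fitted alone (limma adjusted p = 0.0852; range over 19 alternatives 0.0021 to 0.339), while the fold change stayed between -0.44 and -0.36.

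Lyrm7 (ENSMUSG00000020268; chromosome 11, 54826866 to 54860916, minus strand) reached 18.15, 21.7, 21.97 and 22.64 in KO against 10.98, 9.71 and 10.43 in WT. All KO libraries lay well above all WT libraries, 2.04-fold on the means (log2 fold change 0.96, SE 0.119, limma adjusted p = 0.000937). It was the single called gene among 16 tested genes of complex III, against 6 of all 19239 (0.0312%). The list was chosen with earlier results of these data known, so this count does not test complex III. Uqcrq, a complex III subunit, averaged 38.2 ± 2.88 in KO against 33.3 ± 2.4 in WT (limma adjusted p = 1.00), and the list's median was 0.02.

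Tnip1 (ENSMUSG00000020400; chromosome 11, 54910785 to 54962917, minus strand) lies near Lyrm7. It reached 33.25, 36.35, 40.06 and 37.38 in KO against 18.94, 22.27 and 22.95 in WT. KO levels were 1.72-fold higher without overlap (log2 fold change 0.76, SE 0.105, limma adjusted p = 0.00354). Leaving out WT replicate 1 ended the call (limma adjusted p = 0.0695; range over 19 alternatives 0.00146 to 0.0695).

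Olfr1372-ps1 (ENSMUSG00000108218; chromosome 11, 52154722 to 52168159, minus strand) had 2.25, 1.24, 1.8 and 1.79 in KO and 0.14, 0 and 0 in WT. Only 1 WT read was counted against 48 in KO, a ratio of 36.5 per read total (exact 95% interval 6.24 to 1470, counting error only). The log2 fold change was 1.39 (SE 0.223, limma adjusted p = 0.0161). The pseudogene is 96.3% identical over 1795 bases to Olfr1383 and lies within the same-strand gene Gm26551, so the source of its reads is uncertain. Its call ended when any replicate other than KO replicate 2 was left out, and in 10 of 18 alternatives (limma adjusted p 0.0038 to 0.20).

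The called genes lay 0.0458 to 11.5 Mb from Mir146, all on the side of rising coordinates. Within 20 Mb of Mir146 on either side 342 genes were tested, of which 6 were called (1.75%) and 25 had an unadjusted p under 0.05 (7.31%, 10 higher and 15 lower). On the rest of chromosome 11, 0 of 1056 genes were called by limma and 25 (2.37%) had an unadjusted p under 0.05, and on the other chromosomes 0 of 17752 were called and 377 (2.12%) had one. Of the 13 genes with an unadjusted p under 0.001, 10 lay within 20 Mb of Mir146. In steps of 5 Mb, the counts with p under 0.05 were 0 of 19, 0 of 48, 0 of 20 and 2 of 11 genes on the side of falling coordinates, from far to near. On the other side they were 3 of 26, 8 of 67, 11 of 56 and 1 of 95, from near to far.

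**Figure D2:**
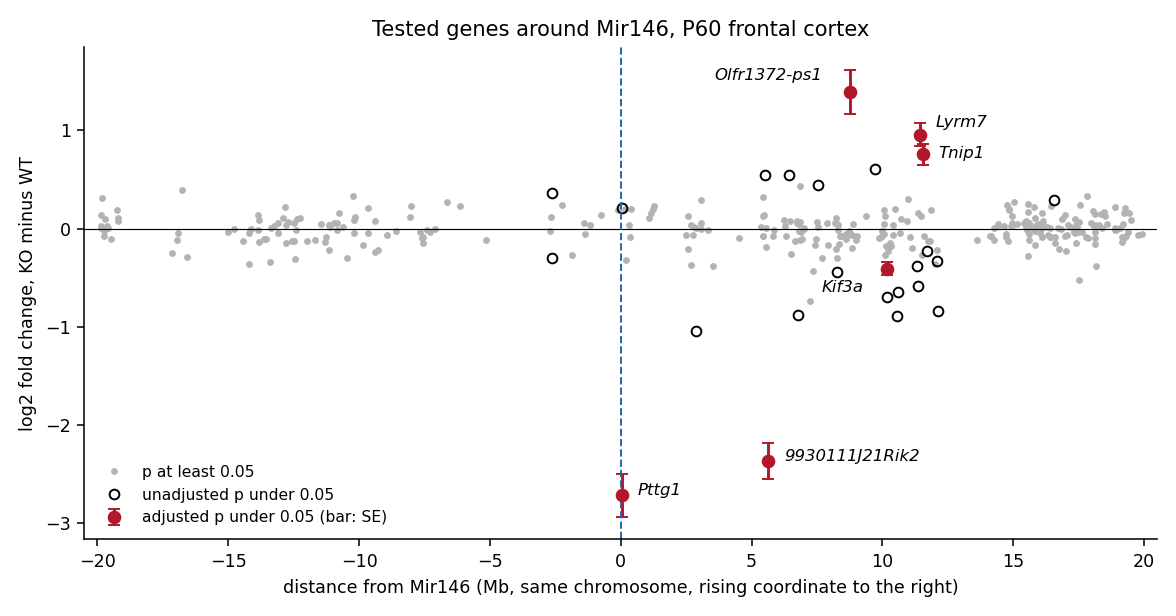
Log2 fold change (KO minus WT, vertical axis) of each tested gene within 20 Mb of Mir146 against its distance in Mb (horizontal axis, Mir146 at the dashed line). Red points with SE bars are the 6 called genes, open circles have an unadjusted p under 0.05 and grey points do not; the red points and most of the open circles lie between 0 and 15 Mb on the right.

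Both directions occurred side by side in this stretch. From the first to the last called gene 122 genes were tested and 19 (15.6%) had an unadjusted p under 0.05, 8 higher and 11 lower. The called genes set the edges of this stretch and all 6 are among the 19, so the choice of the stretch itself raised this share. Gabrb2, a GABA-A receptor subunit 0.745 Mb from Mir146 on the other side, averaged 181 ± 23.9 in KO against 164 ± 12.5 in WT (limma adjusted p = 1.00). Atp10b, a lipid-flipping ATPase and the nearest named gene on that side, was at 3.26 ± 0.346 and 2.75 ± 0.463. Slu7, a splicing factor just beyond Pttg1, was at 67.7 ± 4.19 and 58.4 ± 3.66, and its groups did not overlap (limma adjusted p = 1.00). Cdc42se2, a small effector of the GTPase CDC42 that lies beside Lyrm7, stood at 50.12, 59.99, 66.31 and 59.72 in KO and at 73.15, 73.82 and 83.3 in WT, below in every KO library (log2 fold change -0.38, SE 0.0856, limma adjusted p = 0.618). G3bp1, which nucleates stress granules, was at 33.6 ± 1.84 and 42.4 ± 0.91, also without overlap (log2 fold change -0.33, limma adjusted p = 0.658). The strain background of the mice is not given, and an effect of the missing microRNA and one of DNA linked to the deleted allele cannot be told apart in this design.

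Mir146 itself was listed at 0 in all 7 libraries. Mature microRNAs carry no poly-A tail and escape such libraries, so these zeros are no check of the genotype labels. None of the reported targets was called. Traf6 measured 22.33, 25.57, 22.8 and 26.95 in KO against 26.49, 27.56 and 23.1 in WT, with a log2 fold change of -0.07 (95% interval -0.29 to 0.14, limma adjusted p = 1.00). Irak1 was at 46.8 ± 4.13 and 45.2 ± 0.746 (0.04, 95% interval -0.19 to 0.28). Irak2 was at 20.7 ± 3.41 and 23.3 ± 6.65 (-0.14, 95% interval -0.48 to 0.20). The intervals of these 3 genes include 0.

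Notch1, a receptor that holds back neuronal differentiation, measured 52.05, 40.22, 50.15 and 55.25 in KO against 44.74, 41.84 and 37.1 in WT. The groups overlapped through KO replicate 2, and the difference did not pass (log2 fold change 0.25, 95% interval 0.014 to 0.49, which does not include 0 before adjustment, limma adjusted p = 1.00). Numb, an inhibitor of Notch, was at 81.3 ± 8.09 and 76.0 ± 8.26. Over the 23 reported miR-146a targets tested, 12 lay above 0 and 11 below, with a median of 0.02 and a range of -0.42 (Cxcr4, a chemokine receptor, listed at under 1 in both groups) to 0.25 (Notch1). For the 29 genes of the Notch pathway the median was 0.03, with 15 above and 14 below, and Dll3, a Notch ligand, averaged 0.81 ± 0.237 in KO against 1.68 ± 0.51 in WT (limma adjusted p = 1.00).

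The seed sites were then read across all genes. Of 14244 tested genes with an annotated 3′ UTR, 837 (5.88%) carried AGTTCTCA, 1398 (9.82%) AGTTCTC without it and 1324 (9.3%) GTTCTCA alone, counted on the sense strand. Their median log2 fold changes were 0.00126, -0.00507 and 0.00361, against 0.00071 for the 10685 genes with none of these. None of the 3559 genes with a site was called by limma, and 59 of them, 35 higher and 24 lower, had an unadjusted p under 0.05 (1.66%, against 2.12% of genes without a site). Tnip1, Lyrm7, Kif3a and Pttg1 had no such letters in their longest 3′ UTR.

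**Figure D3:**
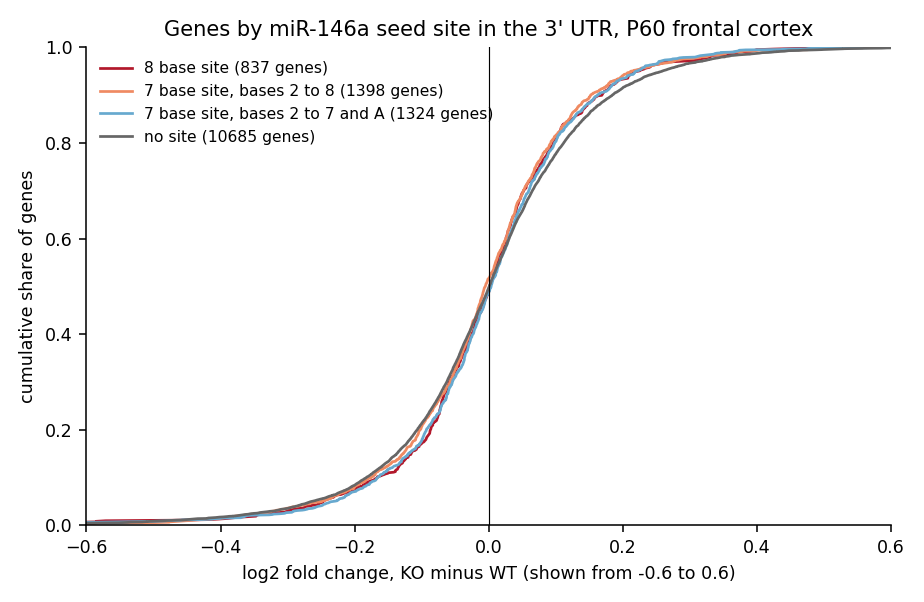
Cumulative share of genes (vertical axis) by log2 fold change, KO minus WT (horizontal axis), for genes with each kind of miR-146a seed site in an annotated 3′ UTR and for genes with none. The 4 curves cross 0 at close to the same share, as the medians of -0.00507 to 0.00361 state.

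Tnip1 was the single called gene among 27 tested genes of Toll-like receptor and NF-kB signalling, against 6 of all 19239 (0.0312%). The list was chosen with earlier results of these data known, so this count does not test the pathway. For this list 16 lay above 0 and 11 below, with a median of 0.02. Irak4, the kinase that activates IRAK1, averaged 2.86 ± 0.968 in KO against 1.62 ± 0.208 in WT (limma adjusted p = 1.00). Map3k7, the kinase TAK1 downstream of TRAF6, was at 72.7 ± 5.98 and 69.9 ± 2.26, and its partner Tab2 at 121 ± 7.86 and 117 ± 1.34.

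No gene of the interferon, cytokine or complement and antigen presentation lists was called. The 19 tested interferon-stimulated genes had a median of 0.12 (0.20 without KO replicate 2), with 15 above 0. The summed level of all 21 genes of the list was 124 to 136 in KO and 114 to 121 in WT, without overlap. Ifit1, which binds foreign RNA, averaged 6.3 ± 0.774 in KO and 4.61 ± 0.411 in WT, and Rsad2, an antiviral enzyme, had a log2 fold change of 0.47 with overlapping groups (limma adjusted p = 1.00 for both). Of 17 cytokine and chemokine genes 7 were tested, with a median of 0.14 (0.088 without WT replicate 3) and 5 above 0. Cxcl12 had a log2 fold change of 0.25, and Cx3cl1, the neuronal ligand of the microglial fractalkine receptor, averaged 559 ± 37.4 in KO and 507 ± 32.1 in WT. H2-K1, a class I antigen-presenting molecule, was at 14.9 ± 2.85 and 10.4 ± 2.62 (limma adjusted p = 1.00).

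Microglia, the resident macrophages of the brain, gave a median of 0.03 over 18 genes, and Csf1r, their growth factor receptor, averaged 75.8 ± 5.09 in KO against 68.8 ± 5.01 in WT. The summed level of the microglial genes was 364 to 442 in KO and 371 to 405 in WT. Astrocyte genes had a median of 0.02 over 15 genes. The astrocyte sum was 8740 to 9151 in KO and 8505 to 8727 in WT, and Slc1a2, the main glutamate transporter, was at 5525 ± 170 and 5207 ± 9.43 without overlap (limma adjusted p = 1.00). Genes of endothelium and pericytes had a median of 0.13 (0.24 without KO replicate 2), with 12 of 16 above 0, and a sum of 774.8, 762.4, 769.3 and 788.2 in KO against 701.8, 702.2 and 674.3 in WT. Of these, the pericyte gene Rgs5 was at 193 ± 8.88 and 167 ± 5.27, and Abcc9, a pericyte potassium channel subunit, at 21.6 ± 2.1 and 16.9 ± 2.32 (limma adjusted p = 1.00 for both). The sums of astrocytes, endothelium and pericytes, cytokines and interferon-stimulated genes were the 4 of 37 lists whose KO libraries all lay above all WT libraries, and in 0 lists did they all lie below; for single genes these shares were 2.68% and 2.58%. The gap was narrow for astrocytes (lowest KO 8739.8, highest WT 8727.2), where Slc1a2 made up most of the sum. It was narrower still for cytokines (666.51 and 666.46), where Cx3cl1 did. Myelin genes, with a median of -0.06 that ran from -0.28 without WT replicate 3 to 0.14 without WT replicate 2 and 14 of 16 below 0, varied widely within the groups, with a summed level of 2753 to 4648 in KO and 2500.3 to 5121 in WT.

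Neuronal genes showed no call either. The median was 0.03 over 12 excitatory neuron genes (7 above 0), -0.03 over 22 interneuron genes (9 above), -0.02 over 24 glutamate receptor genes (11 above), -0.02 over 14 GABA receptor genes (7 above) and 0.01 over 17 synaptic vesicle genes (10 above). Grin1, the obligatory NMDA receptor subunit, averaged 503 ± 15.9 in KO against 458 ± 27 in WT, and Gad1, which makes GABA, at 232 ± 1.68 and 218 ± 7.85, both without overlap (limma adjusted p = 1.00). In the other direction, also without overlap, the GABA-A receptor subunit Gabrb1 averaged 308 ± 18 against 335 ± 7.66 and the synaptic vesicle protein gene Syn2 averaged 271 ± 21.5 against 310 ± 16.8 (limma adjusted p = 1.00 for both). Genes of upper cortical layers had a median of 0.13, with 11 of 13 above 0, and 0.23 without KO replicate 4. Those of deep layers had -0.08, with 11 of 15 below, which ran from -0.26 without KO replicate 2 to -0.008 without WT replicate 2; it was -0.25 without WT replicate 3 and -0.04 without KO replicate 1.

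Activity and clock genes lay mostly above 0 without a call. Of 20 immediate early genes 17 did (median 0.17, but 0.037 without KO replicate 1 and 0.28 without KO replicate 2), and Egr3, an activity-dependent transcription factor, averaged 137 ± 42.1 in KO against 105 ± 11.2 in WT. Of 17 circadian clock genes 15 did (median 0.19, but 0.058 without WT replicate 3), and Dbp, a clock output factor, was at 35.2 ± 7.1 and 23.8 ± 5.5 (limma adjusted p = 1.00 for both). Summed clock genes were lower in KO replicate 4 (1903) than in the other KO libraries (2189 to 2239), and the WT libraries ran from 1712 to 2059. The striatal list had a median of -0.77 with 1 of 15 above 0, and -0.20, -0.31, -1.20 and -0.35 without KO replicates 1, 3 and 4 and WT replicate 3 in turn. It was led by the dopamine receptor Drd2 (log2 fold change -1.55, SE 1.34). The amygdala list had a median of -0.32 with 0 of 11 above 0, and -0.14, -0.18 and -0.49 without KO replicates 1, 3 and 4. The part of striatal tissue, whose gene sums ran from 454 to 2125 among the KO libraries, in these medians was not tested.

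**Figure D4:**
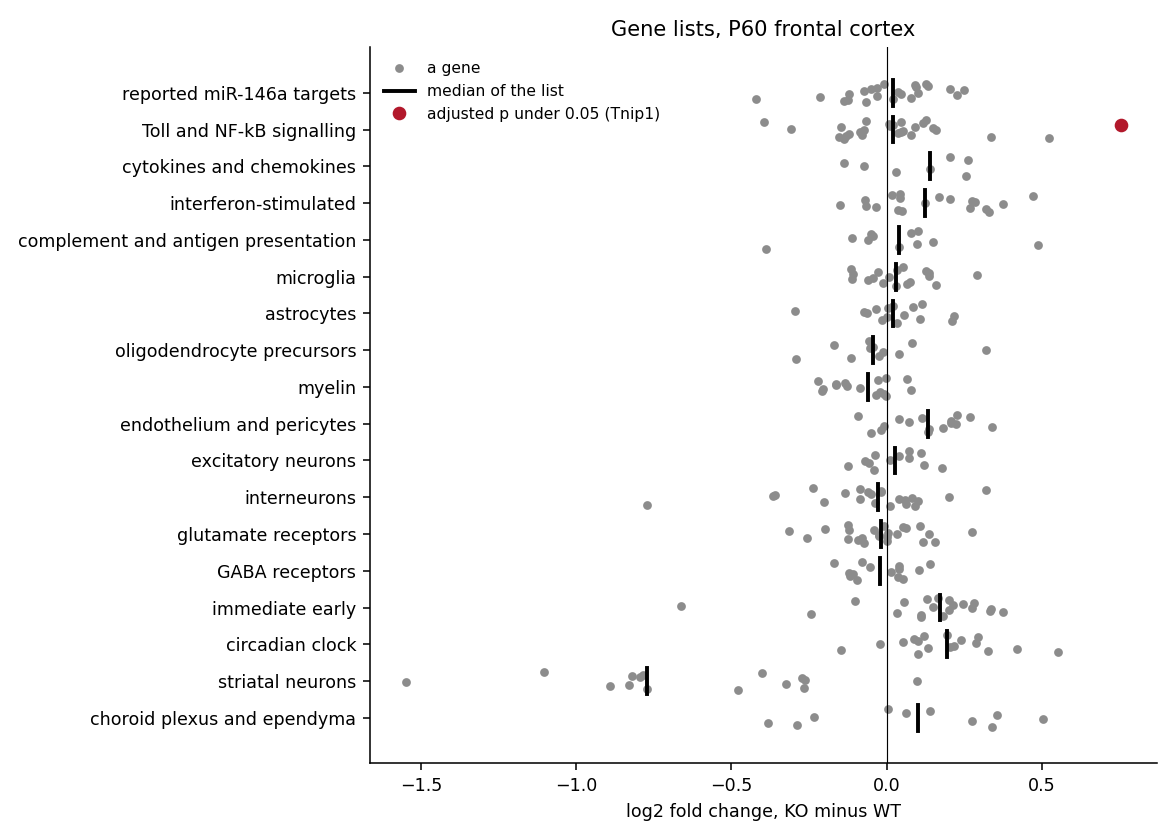
Log2 fold change (KO minus WT, horizontal axis) of each tested gene in 18 of the gene lists (rows). Grey points are genes, the black line is the median of a list, and the red point is Tnip1, the single called gene shown; most medians lie near 0, with the striatal list at -0.77.

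Genes of other chromosomes or of chromosome 11 beyond 20 Mb are given by their values, since none passed. They are those with the smallest p, no overlap and a mean of at least 5, with unnamed gene models left out. The 2 genes on other chromosomes and the 1 without a position that had an unadjusted p under 0.001 are not among them. Higher in KO were Tmem229b (23.0 ± 1.21 against 18.1 ± 1.51), the zinc transporter Slc39a8 (7.44 ± 1.74 against 4.59 ± 0.555), Ppp1r3e, a glycogen-targeting phosphatase subunit (6.64 ± 0.357 against 4.44 ± 0.423), and Ssbp4 (62.5 ± 3.57 against 52.8 ± 1.18). So were Tbrg4 (24.0 ± 3.43 against 18.6 ± 1.42), Gtpbp3 (11.1 ± 1.93 against 8.05 ± 0.292) and Lars2, the mitochondrial leucyl-tRNA synthetase (60.1 ± 14.1 against 43.6 ± 3.12), with Adamtsl5 and Mmrn2 as the others. Lower in KO were Ptges3, a cochaperone of HSP90 (30.8 ± 2.89 against 38.5 ± 0.776), the growth factor Fgf10 (4.24 ± 0.154 against 6.52 ± 1.65), Usp46, a deubiquitinase (73.2 ± 4.49 against 87.8 ± 4.69), Jazf1 (19.4 ± 0.725 against 25.3 ± 1.77) and the ribosomal protein gene Rpl23a (8.53 ± 0.86 against 12.5 ± 0.948), with Trmt112 and Ier3ip1 as the others. Every one had a limma adjusted p of 1.00. Of the 34 tested genes in the ribosomal protein list 25 lay below 0 (median -0.06), and 0 were called. KO and WT did not overlap for 5 with KO lower and 1 with KO higher, against 2.58% and 2.68% of all genes. The list's summed level overlapped, at 2201.5 to 2383.2 in KO and 2337.5 to 2475.5 in WT.

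The 6 called genes were followed into the other postnatal tissues. The comparisons use separate libraries, but the same replicate number had the same sex in each P60 region, so libraries may share animals. The P60 amygdala (4 KO, 3 WT) gave 4 calls among 19239 genes (0.0208%), the P60 hippocampus (2 KO, 3 WT) 4 (0.0208%), and the P30 frontal cortex (4 KO, 4 WT) 3 among 18511 (0.0162%). The log2 fold change of Pttg1 was -2.72 in the P60 frontal cortex, -2.74 in the amygdala, -2.94 in the hippocampus and -2.39 at P30. For 9930111J21Rik2 it was -2.37, -2.65, -2.36 and -2.46, and for Lyrm7 0.96, 1.11, 0.93 and 0.99. These 3 genes were called in all 4 settings. Kif3a (-0.41, -0.40, -0.34 and -0.27) was also called in the amygdala but not in the hippocampus or at P30.

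Tnip1 was called in the P60 frontal cortex alone, but its difference was not shown to be particular to it. Its log2 fold change was 0.76 there, 0.49 in the amygdala (limma adjusted p = 0.338), 0.61 in the hippocampus (limma adjusted p = 0.358) and 0.53 at P30 (limma adjusted p = 0.0883). Every KO library lay above every WT library in each of these tissues: 32.84 to 33.76 against 21.31 to 28.18 in the amygdala, 28.93 and 34.48 against 19.6 to 21.5 in the hippocampus. The difference between the effects was 0.26 against the amygdala (95% interval -0.05 to 0.57), 0.15 against the hippocampus (-0.19 to 0.49) and 0.23 against P30 (-0.07 to 0.52), each with a limma adjusted p above 0.98. Olfr1372-ps1 (1.39, 1.24, 0.95 and 0.97) likewise passed in the frontal cortex at P60 alone and did not overlap in any of them.

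**Figure D5:**
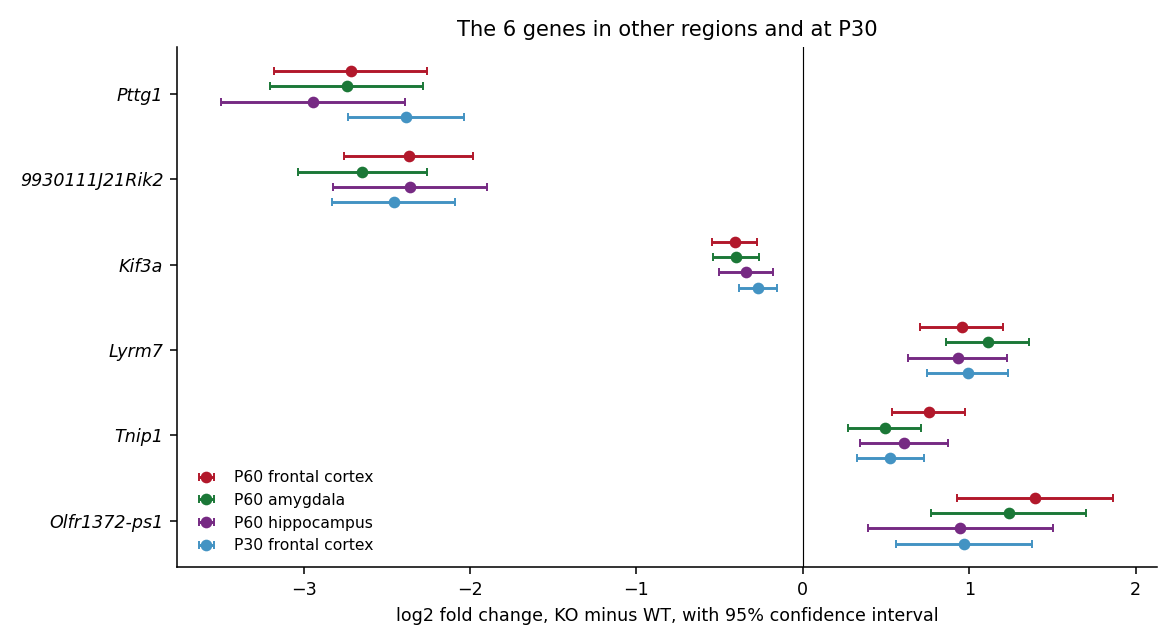
Log2 fold change (KO minus WT, horizontal axis) with 95% confidence interval for the 6 genes called in the P60 frontal cortex (rows), in that tissue, the P60 amygdala, the P60 hippocampus and the P30 frontal cortex. For each gene the 4 intervals lie on the same side of 0 and overlap one another.

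Cdc42se2 was called in the hippocampus, where its log2 fold change was -0.76 against -0.38 in the P60 frontal cortex, a difference of 0.39 (SE 0.133, limma adjusted p = 1.00). Across all genes, 0 differed in the effect of genotype between the P60 frontal cortex and the amygdala by limma, with 605 (3.14%) at an unadjusted p under 0.05. Against the hippocampus 0 did, with 376 (1.95%), and against the P30 frontal cortex 0 did, with 894 (4.83%). voom gave 0 in each. Without KO replicate 4 the comparison with P30 called 3 genes: Cdh6 (0.85), Pcsk5 (-0.94) and Prss12 (-1.12).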

How the data were processed

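Per the labels' protocols, poly-A RNA was made into stranded libraries and both ends of the fragments were read. The authors deposited normalised read counts per gene for P60: CPM on an effective library size, with column totals of 979140 to 1036247. The build mm9 and the packages DESeq, limma and edgeR are named, per the submitters' processing notes. The aligner, the counter, its use of strand and the annotation are not stated. In each library all values above 0 (100%) were whole multiples of the worth of 1 read, to within 0.1 read, so whole reads were recovered. Of 48526 gene IDs 48058 were found in GENCODE M21, and positions are GRCm38 from that annotation. The design text names sensory cortex and another postnatal day where the sample labels give frontal cortex and P60; the labels were followed. The labels' growth protocol describes human neural stem cells and was not used.

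limma 3.58.1 in R 4.3.3 (limma-trend, robust) was fitted to log2(value + 1) of all 19 P60 libraries, with KO minus WT in the frontal cortex as contrast. Genes needed 10 reads at median depth in 2 libraries and 15 reads over all. Interactions used the same fit; for P30 and P60, recovered reads of both frontal cortex sets shared 1 TMM scaling. The steps were tested on simulated data. Genes named were the called ones, those with the smallest p without overlap and a mean of at least 5 up to 12 per direction, up to 4 members of each list by p and level, the nearest genes to Mir146, and Mir146, Traf6, Irak1, Irak2, Notch1 and Numb. Unnamed gene models were left out unless called, except Gm5431, which was named as a close copy after its values were seen; Pcsk5 and Prss12 were named because leaving out 1 library called them. The comparison, the lists and the tests were chosen with earlier results of these data known. Similar transcripts were found with blastn 2.17.0. Libraries of KO and WT with the same replicate number had deviations from their group means that correlated at 0.233, 0.197 and 0.032, not all above 0.1, so the numbers were not taken as pairs. The p-values within P60 rest on the spread between libraries of the same genotype and region, pooled over all 19 P60 libraries. These libraries were taken as independent, though they may share animals. The p-values hold for these mice only. The values of 1 gene that the naming rule takes are not reported here.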

Additional observations from a re-analysis of the deposited data

Results flagged for a closer look

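A library far from the others of its group was looked for in 65 sets of 4 KO values, and 5 were found; chance gives about 1 in 20. Lars2 was 81.28 in KO replicate 2 against 52.42 to 54.02 in the other KO libraries. Ptges3 was 35.09 in KO replicate 3 against 28.74 to 29.72. The summed interneuron genes were 1715.8 in KO replicate 4 against 1605.5 to 1623.3. Summed choroid plexus and ependymal genes were 258.21 in KO replicate 2 against 13.53 to 19.91. Summed circadian clock genes were 1903.1 in KO replicate 4 against 2189 to 2238.8.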

How the results depend on the processing

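The number of called genes was 6 with pseudocounts of 0.1, 0.5 or 5, TMM scaling, a sex term or the animal number as a random effect, 7 with no filter, 5 with a mean of at least 1, 5 with voom, 4 with the 7 libraries alone and 8 when fitted with P30, an alternative added after seeing the data. It was 3 to 5 without each replicate in turn, with 3 without WT replicate 1. Equal counts do not always cover the same genes: Olfr1372-ps1 lost its call in 10 of 18 alternatives and Kif3a in 8 of 19. The count of genes differing from P30 was 0 to 3 without each replicate in turn. With the replicate block, which drops KO replicate 4 for want of a partner, 4 genes were called, and Kif3a (limma adjusted p = 0.278) and Olfr1372-ps1 (0.171) lost their call. Pttg1, 9930111J21Rik2 and Lyrm7 kept their call in all 19 alternatives run. Across pseudocounts and voom, which set how low values count, the log2 fold change ran from -3.78 to -1.40 for Pttg1, from -3.97 to -1.02 for 9930111J21Rik2 and from 0.42 to 4.11 for Olfr1372-ps1. Irak1, not called, turned to -0.011 with the replicate block and without KO replicate 4, and Irak2 to 0.047 without WT replicate 1; without each replicate in turn they ran from -0.011 to 0.080 and from -0.36 to 0.047. Median log2 fold changes of the miR-146a target, Toll, microglial, astrocyte, excitatory neuron, glutamate receptor, GABA receptor, synaptic vesicle and complex III lists changed sign without at least 1 replicate and stayed between -0.063 and 0.075. The myelin, oligodendrocyte precursor, complement, hippocampal and mitochondrially encoded lists changed sign too. So did choroid plexus and ependyma (-0.28 to 0.35), glucocorticoid-responsive (-0.38 to 0.036), heat shock (-0.17 to 0.15) and meninges (-0.19 to 0.099), over wider ranges. The causes were not tested. Planned edgeR and DESeq2 fits were not run; voom in limma took the place of a count model. Depth left 19 reads for Pttg1 in KO and 1 read for Olfr1372-ps1 in WT.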
